A study of Mus musculus with 9 samples.

Results

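Translation initiation factors, the proteins that load ribosomes onto mRNA, were followed at the transcript level in right ventricular myocardium of young mice. The set was every protein-coding row of the deposited gene table whose symbol starts with Eif and a digit from 1 to 6, without the eIF2 kinases (Eif2ak) and without the X- and Y-linked copies of eIF2 gamma (Eif2s3x and Eif2s3y). That rule took 49 of 54532 genes, of which 22046 are protein coding. The rule uses no expression value, but members and lists were chosen with earlier results of these data known. Of the 49, 47 had a mean of at least 0.5 FPKM (fragments per kilobase, relative to the size of the library) over the 9 libraries and were tested. Eif4e1b, an eIF4E relative, was listed at 0 in every library, and Eif4ebp3, an eIF4E-binding protein, lay between 0 and 0.311 FPKM.

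All mice were wild-type C57BL/6 pups labelled as postnatal day 7, which the treatment protocol gives as the age at surgery, and nursed by their mothers. Each of 3 groups had 3 libraries. Sham pups had a sham operation, VO pups had fistula surgery to impose volume overload, and CsA pups had the same surgery and an injection of cyclosporin A, a calcineurin inhibitor. The comparisons ask what the overload does to the right ventricle and what the drug does on top of it. The fistula's vessels, the drug dose, any vehicle injection, the time from surgery to tissue collection and the sex of the pups are not given in the sources used here. Nothing says that the libraries came from separate animals, so p-values measure the spread between these libraries, which may be technical.

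In initiation, eIF2 brings the initiator tRNA to the small ribosomal subunit, and eIF2B recharges eIF2 with GTP after each round. The eIF3 complex, eIF1 and eIF1A hold that subunit open for scanning, while eIF4E binds the mRNA cap and eIF4G and the helicase eIF4A recruit and unwind the message. eIF5 and eIF5B then release eIF2 and join the large subunit, and eIF4E-binding proteins restrain the cap-binding step downstream of mTORC1. Growing heart muscle depends on this machinery for the synthesis of contractile protein.

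The libraries held 12046288 to 15986747 recovered fragments. The third VO library stood apart from the other 8: 11.01% of its fragments were mitochondrial against 22.2% to 26.3% elsewhere, 17003 genes were above 0 against 19619 to 20479, and 5 erythroid markers summed to 2038 FPKM against 591 to 1039. All 7 ventricular cardiomyocyte markers were above 0 in every library. They summed to 11080 to 14270 FPKM in Sham, 8509, 11250 and 13830 in VO 1 to 3 and 12040 to 12400 in CsA, and 6 of the 7 had a fold change below 0 in VO against Sham (median log2 -0.48), none past the test. The 6 endothelial markers summed to 358 to 397 FPKM in Sham, 283, 315 and 626 in VO and 385 to 435 in CsA. Of the 6, 2 were called lower in VO against Sham (limma, median log2 -0.54), against 2.72% of all genes. The 5 smooth muscle and pericyte markers summed to 695 to 1009 in Sham, 534 to 697.5 in VO and 688 to 788 in CsA. Of 4 tested, 1 was called lower (median log2 -0.73), against the same 2.72% of all genes. Of 5 macrophage markers, 4 were below 0 (median log2 -0.37), and of 5 fibroblast markers 2 were (median log2 0.02), none called. The part of these cell types in the results that follow was not tested. The 5 atrial markers summed to 559, 2.43 and 586 FPKM in Sham 1 to 3, to between 6.20 and 13.1 in VO, and to 23.0, 2.10 and 145 in CsA 1 to 3, so atrial transcripts were high in Sham 1, Sham 3 and CsA 3. The left-out Y-linked Eif2s3y was 12.8 FPKM in Sham 2 and listed at 0 in the other 8. The part of the pups' sex in the results was not tested. In bulk tissue, fewer cells of a type and less RNA per cell cannot be told apart.

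Between VO and Sham, 2 of the 47 tested factors rose and none fell (limma, Benjamini-Hochberg adjusted p under 0.05). These were Eif1a, which encodes the scanning factor eIF1A, and Eif2s2, which encodes the beta subunit of eIF2. The 2 make 4.26% of the set against 4.76% of all 13477 tested genes (642 genes). Of all genes, 2.04% rose and 2.72% fell, so the share called was close to the background. At an unadjusted p under 0.05 there were 17 factors (36.2% against 29.3% of all genes). Groups did not overlap in 18 of 47 factors (38.3% against 33.1% of all genes). VO was the higher group in 13 of them (27.7% against 16.2%) and the lower in 5 (10.6% against 17% of all genes). All counts of overlap here use the values as deposited, not corrected for the GC content of the transcripts, which fold changes followed. The median log2 fold change on log2(FPKM + 1), the scale of every fold change here, was 0.14 over the factors, with 27 of 47 above 0 (57.4% against 50.4% of all genes), and 0.0028 over all genes. Without the third VO library the factors' median was 0.0013.

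**Figure D1:**
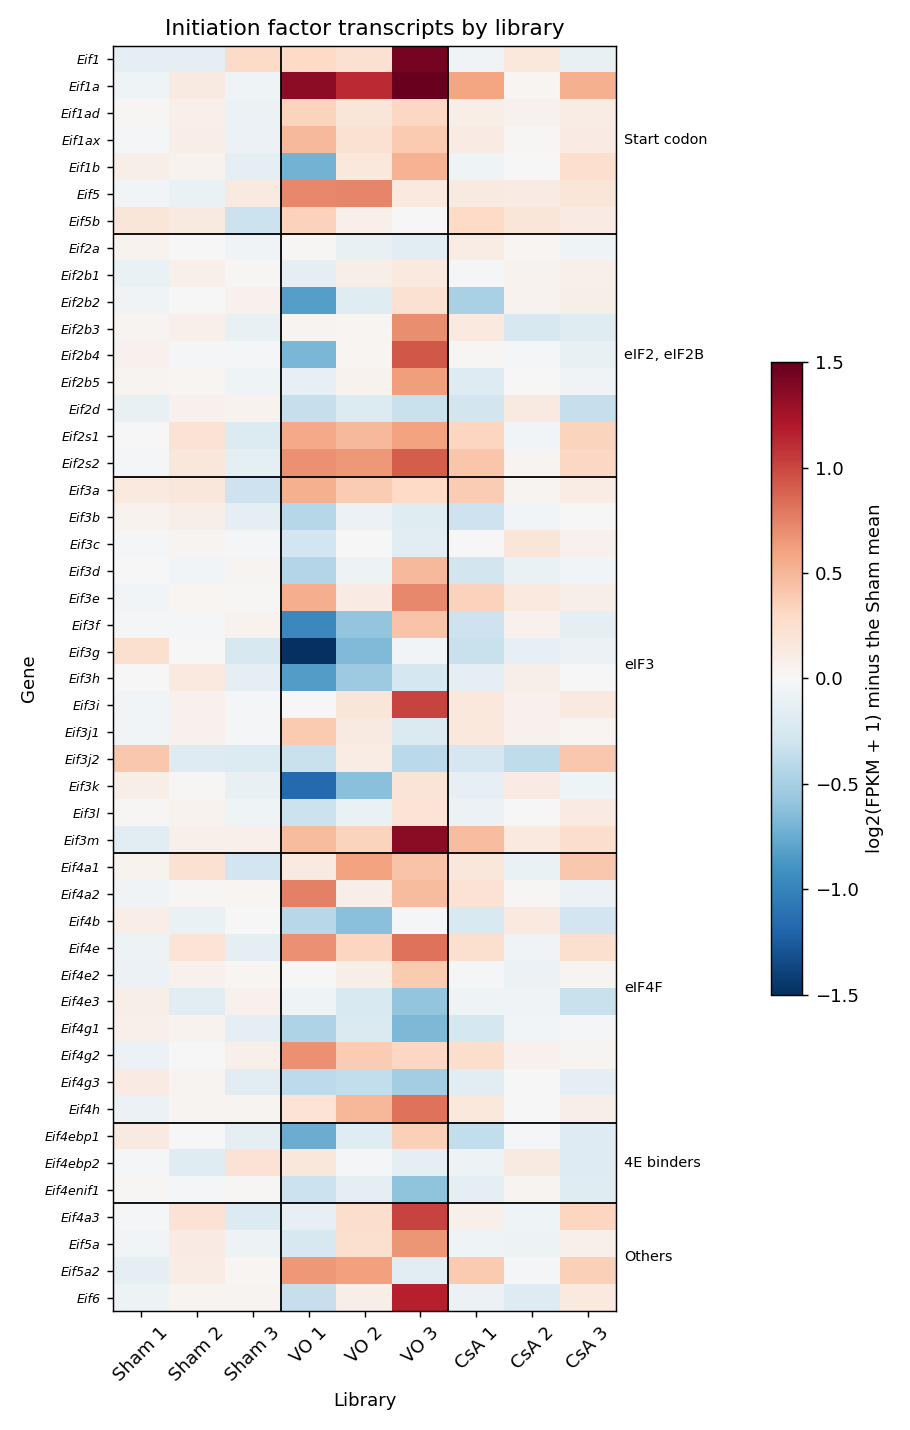
Each row is one of the 47 tested initiation factors, ordered by role, and each column one library. Colour gives the library's log2(FPKM + 1) minus the mean of the 3 Sham libraries, and saturates at the ends of the scale. Eif1a is dark red in all 3 VO libraries, while many eIF3 rows are blue in VO 1 and VO 2 and pale or red in VO 3.

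Promoter sequences are shown for Eif2s2 and Eif4h, which had higher VO values in all 3 libraries, and for the eIF3 genes Eif3f and Eif3k, where the VO libraries split. They are RefSeq sequence on GRCm38.p6, 5′ to 3′ on the strand of the gene, and end before the first exon of the deposited gene model. Capitals mark CACGTG, the E-box bound by the MYC and USF families. Eif2s2 lies at chr2:154892936-154893156 on the minus strand, Eif4h at chr5:134639491-134639659 on the minus strand, Eif3f at chr7:108934165-108934414 on the plus strand and Eif3k at chr7:28981889-28982138 on the minus strand.
Eif2s2: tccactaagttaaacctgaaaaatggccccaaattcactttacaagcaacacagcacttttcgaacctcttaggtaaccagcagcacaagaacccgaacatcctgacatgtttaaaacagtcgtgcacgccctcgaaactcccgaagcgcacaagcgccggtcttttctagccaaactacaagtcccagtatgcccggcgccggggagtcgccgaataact
Eif4h: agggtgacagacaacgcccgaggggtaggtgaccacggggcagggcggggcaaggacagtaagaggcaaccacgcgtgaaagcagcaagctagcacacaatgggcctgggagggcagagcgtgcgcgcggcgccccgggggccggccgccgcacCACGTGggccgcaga
Eif3f: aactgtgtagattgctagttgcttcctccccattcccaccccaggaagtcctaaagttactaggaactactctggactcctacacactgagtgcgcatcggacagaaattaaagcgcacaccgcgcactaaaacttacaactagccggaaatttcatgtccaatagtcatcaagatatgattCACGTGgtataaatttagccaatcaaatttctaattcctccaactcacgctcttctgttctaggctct
Eif3k: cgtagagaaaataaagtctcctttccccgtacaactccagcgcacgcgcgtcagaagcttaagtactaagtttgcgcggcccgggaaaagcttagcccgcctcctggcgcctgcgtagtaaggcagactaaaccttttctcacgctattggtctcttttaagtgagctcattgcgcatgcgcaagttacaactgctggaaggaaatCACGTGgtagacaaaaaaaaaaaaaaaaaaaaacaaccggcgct

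The E-box started at -96 relative to the RefSeq start in Eif4h, at -68 in Eif3f and at -44 in Eif3k, and was not among the letters of the Eif2s2 window. CACGTG, the same on both strands, was in at least 1 window of 300 bases around a start (250 before and 50 after) in 10 of the 37 factors with a promoter entry (27.0%), against 8.09% of 27025 genes and 11.6% of the 9585 tested genes with an entry. The 10 were Eif1b, Eif3a, Eif3f, Eif3k, Eif4a1, Eif4e, Eif4g1, Eif4h, Eif5a and Eif5a2. By window, 24.5% of 49 factor windows and 7.15% of all windows held it. Among them are genes higher in every VO library (Eif4e), lower in every one (Eif4g1) and overlapping with Sham (Eif3f). The amino acid response element core TGATGNAA, searched on both strands, was in none of the 37, in 4.51% of all genes and in 2.70% of the tested genes with an entry. A match is a description of letters and not of binding.

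Start codon selection had a median of 0.37 in VO against Sham, with 6 of 7 members above 0 (85.7% against 50.4% of all genes). Past the test was 1 of the 7 (14.3% against 4.76%). After correction for transcript GC content the median was 0.26, with 6 of 7 above 0. With GC correction and without VO 3 it was 0.32, with 4 of 7 above 0 (57.1% against 51.9% of all genes). Eif1a (ENSMUSG00000057561, chromosome 18, 46597704 to 46610225, GRCm38) measured 6.86, 8.04 and 6.86 FPKM in Sham 1 to 3. It measured 19.9, 16.9 and 22.5 FPKM in VO 1 to 3, and 11.4, 7.41 and 10.9 FPKM in CsA 1 to 3. Every VO library was above every other library, and CsA 2 lay inside the Sham range. The means were 7.25 ± 0.683 in Sham and 19.8 ± 2.77 in VO (SD, n = 3). On the log2 scale the rise was 1.33 ± 0.182 (SE), at a limma adjusted p of 0.0382. Of the 50-base words of its longest transcript, 4.05% occurred in other genes.

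The call on Eif1a held without the third VO library (1.23, limma adjusted p = 0.0309) and in voom on recovered fragments (1.44, adjusted p = 0.0331), and the fold change stayed between 0.82 and 1.44 in all 20 alternatives. It was lost without Sham 1 (limma adjusted p = 0.183), Sham 3 (0.144), VO 1 (0.0856), CsA 1 (0.0526) or CsA 3 (0.0679), and over all alternatives the adjusted p ran from 0.0303 to 0.975. Corrected for transcript GC content it was 1.01 ± 0.18 (limma adjusted p = 0.0667).

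Eif1ax, the X-linked gene for eIF1A, measured 16.8, 18.3 and 15.9 FPKM in Sham, 24.2, 20.2 and 22.6 in VO and 18.6, 17.2 and 18.6 in CsA. VO was above both other groups in every library, without passing the test (0.37 ± 0.133, limma adjusted p = 0.107), and the fold change was 0.05 after GC correction. The ratio of Eif1a to Eif1ax, per length, was 0.408, 0.439 and 0.430 in Sham, 0.820, 0.840 and 0.993 in VO, and 0.614, 0.430 and 0.585 in CsA. The autosomal copy was thus the minor one in Sham and close to level with the X-linked one in VO 3, and the VO ratios overlapped neither group.

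Eif5, the factor that triggers GTP hydrolysis on eIF2, measured 27.7, 26.5 and 31.3 FPKM in Sham, 47.6, 48.0 and 31.5 in VO and 31.4, 31.0 and 32.4 in CsA. VO 3 was at the top of the Sham range and the other 2 VO libraries were far above it. It stood at 0.53 (limma adjusted p = 0.0968), and 0.73 ± 0.113 without VO 3, where it passed (adjusted p = 0.0309). After GC correction it was 0.26 (limma adjusted p = 0.353). Eif1, which keeps scanning ribosomes from stopping at wrong codons, was the most abundant factor of all, at 149, 149 and 200 FPKM in Sham, 203, 193 and 447 in VO and 158, 183 and 151.5 in CsA. Here VO 3 alone was far above the rest, VO and Sham overlapped, and 31.6% of the words of Eif1 occurred in other genes. Its close relative Eif1b was at 26.5, 25.8 and 22.5 FPKM in Sham and at 14.8, 27.8 and 36.3 in VO. The 3 VO libraries fell on both sides of Sham. Eif1ad, which carries the eIF1A domain, was higher in every VO library (0.27, limma adjusted p = 0.171) but shares 15.1% of its words with Banf1. Eif5b, the GTPase of subunit joining, ran from 4.43 to 7.60 FPKM with overlapping groups, and shares 18.2% with Rev1.

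**Figure D2:**
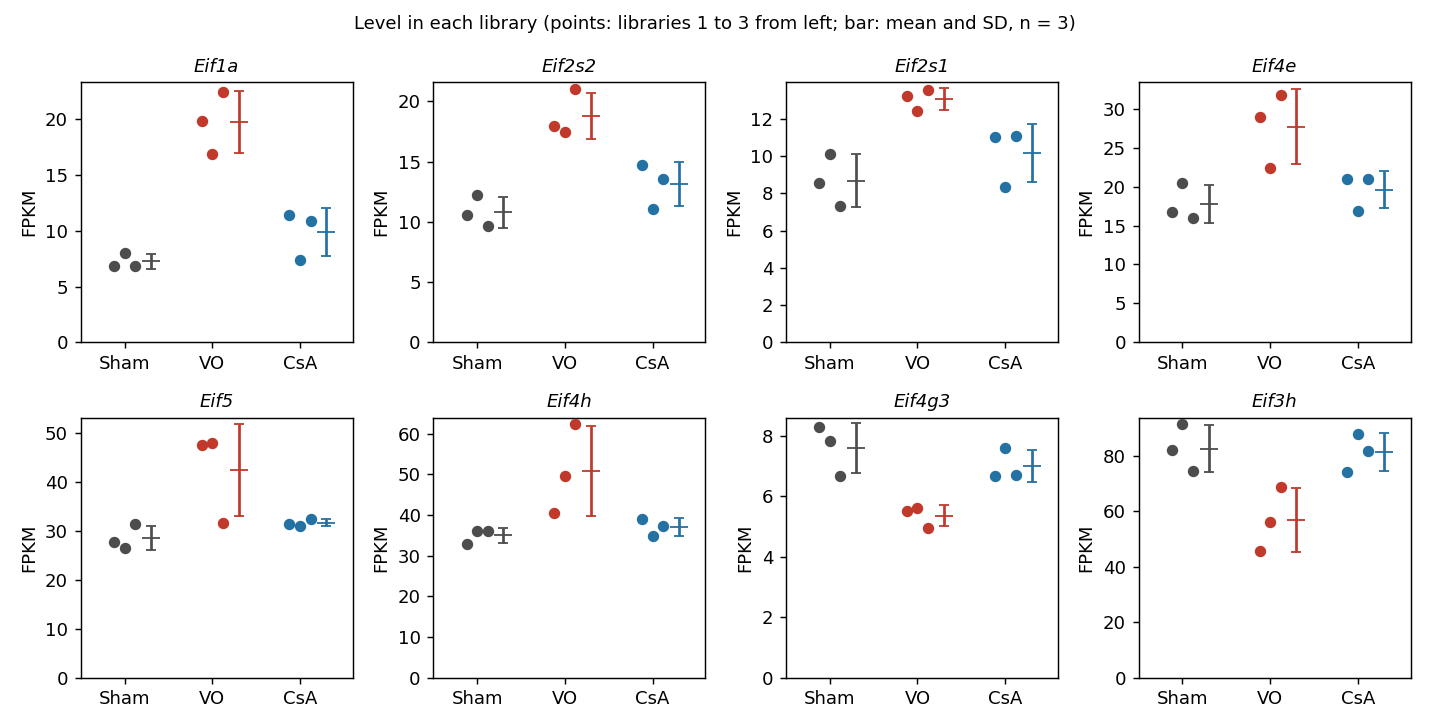
FPKM of 8 initiation factors in each library, with points for libraries 1 to 3 of each group from left to right and bars for the mean and SD (n = 3). The VO points of Eif1a, from 16.9 to 22.5, lie above all Sham and CsA points, the third VO point of Eif5 lies at 31.5 beside the Sham points, and Eif4g3 and Eif3h are lower in VO.

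Among eIF2, eIF2B and the other carriers of initiator tRNA, 6 of 9 had a log2 fold change above 0 in VO against Sham. These make 66.7% against 50.4% of all genes, and the median of the 9 was 0.09. Without VO 3 this median turned to -0.03, with 3 of 9 above 0. It was 0.16 after GC correction, with 6 of 9 above 0, and 0.02 with both, with 5 of 9 above 0. Eif2s2 (ENSMUSG00000074656, chromosome 2, 154871410 to 154892935, minus strand) measured 10.5, 12.2 and 9.65 FPKM in Sham, 17.9, 17.4 and 21 in VO and 14.7, 11.1 and 13.6 in CsA. The lowest VO library was above the highest Sham and CsA libraries. The rise was 0.75 ± 0.157 (SE; limma adjusted p = 0.0408), from a mean of 10.8 ± 1.3 to 18.8 ± 1.93 FPKM (SD, n = 3). It passed in voom (0.80, adjusted p = 0.0352) and without VO 3 (0.67, limma adjusted p = 0.0352). It did not pass without Sham 1, Sham 2, Sham 3, VO 1, CsA 1 or CsA 3 (adjusted p from 0.0547 to 0.183) or after GC correction, which took it to 0.40 (limma adjusted p = 0.23). Over all alternatives the fold change was 0.21 to 0.83 and the adjusted p 0.0352 to 0.975.

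Eif2s1, the alpha subunit that stress kinases phosphorylate, measured 8.58, 10.1 and 7.31 FPKM in Sham, 13.2, 12.4 and 13.5 in VO and 11.02, 8.34 and 11.1 in CsA. All VO libraries were above all others, and the fold change of 0.55 ± 0.16 did not pass (limma adjusted p = 0.0675), falling to 0.25 after GC correction. The 5 eIF2B subunits overlapped between VO and Sham. Eif2b5, the catalytic epsilon subunit and the most abundant of this role, was at 20.8, 20.5 and 19.1 FPKM in Sham and 18.4, 21 and 31.5 in VO. Eif2b4, the delta subunit, was at 15.2, 14.2 and 14.2 in Sham and 8.69, 14.9 and 28.6 in VO. Eif2b2, the beta subunit, was at 9.60, 9.96 and 10.5 in Sham and 5.23, 8.68 and 11.9 in VO. In Eif2b4 and Eif2b2, VO 1 was below every Sham library and VO 3 above every one, and all 5 subunits peaked among the 9 libraries in VO 3. Eif2d, a factor for alternative tRNA delivery and recycling, was lower in every VO library (3.07 to 3.47 FPKM against 3.77 to 4.40, log2 -0.29, limma adjusted p = 0.232). Eif2a, an eIF2-independent carrier, overlapped at a log2 fold change of -0.09. After GC correction Eif2a was at -0.40 (limma adjusted p = 0.12).

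The eIF3 complex had a negative median in VO against Sham, -0.11. Of its 14 genes 5 were above 0 (35.7% against 50.4% of all genes) and none past the test. The median stayed negative after GC correction (-0.10) and without VO 3 (-0.17). Eif3h, an MPN-domain subunit and the most abundant of the complex, measured 82.0, 91.4 and 74.4 FPKM in Sham, 45.6, 56.2 and 68.7 in VO and 74.3, 87.8 and 81.9 in CsA. Every VO library was below all others, at -0.55 ± 0.185 (limma adjusted p = 0.0952). It passed without VO 3 (-0.69, adjusted p = 0.0343), and its adjusted p ran to 0.975 over the alternatives. Of its words, 26.2% occurred in other genes, so part of its reads may be assigned elsewhere.

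Eif3f, the other MPN-domain subunit, measured 47.6, 47.3 and 49.97 FPKM in Sham, 24.1, 31.8 and 65.4 in VO and 38.6, 50.7 and 43.4 in CsA. Eif3k, a peripheral subunit, measured 26.9, 25.7 and 23.4 in Sham, 10.7, 16.1 and 29.1 in VO and 23.2, 27.7 and 24.2 in CsA. In both, VO 1 and VO 2 were the lowest of the 9 libraries and VO 3 the highest. The same split, VO 1 and VO 2 below every Sham library and VO 3 above, was present in Eif2b2, Eif3d, Eif3f, Eif3k, Eif3l and Eif4ebp1, 6 of 47 factors (12.8%) against 5.97% of all genes. The reverse split was present in Eif3j1 and Eif5a2 (4.26% against 6.79%). Eif3g, of the module with Eif3b and Eif3i, had the lowest fold change of the family (-0.76, limma adjusted p = 0.158), from 9.41 to 13.6 FPKM in Sham and 3.10, 6.76 and 11.02 in VO.

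Other eIF3 genes were higher in VO. Eif3m, a PCI-domain subunit, measured 38.2, 45.3 and 45.05 FPKM in Sham, 59.6, 54.3 and 111 in VO and 59.4, 47.4 and 51.4 in CsA (0.72 ± 0.255, limma adjusted p = 0.104). Eif3e, also with a PCI domain, measured 16.1, 16.9 and 16.7 in Sham and 24.7, 18.2 and 28.1 in VO (0.47, limma adjusted p = 0.112), and passed without VO 2 (0.64, adjusted p = 0.0491). Eif3a, the largest scaffold subunit, was at 26.8 to 37.7 in Sham and 41.4 to 49.1 in VO. In these 3 genes no VO library overlapped Sham, so in the values as deposited subunits of the same complex lay on both sides of 0. After GC correction, Eif3a was at 0.23, Eif3e at 0.05 and Eif3m at 0.37. Eif3m was at 0.41 without VO 3, and with GC correction and without VO 3 Eif3m turned to -0.05 and Eif3e to -0.22. Eif3j1 and Eif3j2 cannot be separated with confidence, since 54.8% and 91.8% of their words occur in other genes, mostly in each other. Eif3d overlaps an antisense gene over 43.3% of its exon bases, at a mean of 0.0693 FPKM for that gene.

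Of the cap-binding complex and its helicase, 6 of 10 tested genes had a fold change above 0, against 50.4% of all genes. The groups did not overlap in 6, against 33.1% of all genes. The median fold change was 0.27, 0.14 after GC correction and 0.04 with GC correction and without VO 3. Eif4e, the cap-binding protein, measured 16.7, 20.5 and 16.03 FPKM in Sham, 28.9, 22.4 and 31.8 in VO and 20.96, 16.9 and 20.98 in CsA. All VO libraries were above all others, at 0.61 ± 0.177 (limma adjusted p = 0.0675). It passed only in the alternative without VO 2 (0.75, adjusted p = 0.0473) and was 0.30 after GC correction. Its relative Eif4e2, which represses bound messages, was at 5.59 to 6.31 in Sham and 6.00 to 8.18 in VO. Its fold change was 0.16, and 0.15 after GC correction. The ratio of Eif4e to Eif4e2, not corrected for GC, was 2.61 to 3.25 in Sham and 3.48 to 4.81 in VO, without overlap. Ratios overlapped between VO and Sham in Eif1/Eif1b, Eif4a1/Eif4a2, Eif5a/Eif5a2, Eif3j1/Eif3j2 and Eif4ebp1/Eif4ebp2. With Eif4ebp3 at 0 in VO 1 and VO 3, its ratio could not be compared.

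Eif4h, which stimulates the helicase, measured 32.8, 36.0 and 36.0 FPKM in Sham, 40.4, 49.6 and 62.4 in VO and 39.1, 34.7 and 37.2 in CsA. The VO libraries were the 3 highest, at 0.51 ± 0.174 (limma adjusted p = 0.0988). With a GC content of 55.5%, where most genes were lower in VO, the fold change grew to 0.76 ± 0.14 after GC correction (adjusted p = 0.0711). Eif4b, the other helicase cofactor, had a fold change of -0.36 with overlapping groups.

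The scaffold genes went apart. Eif4g3 measured 8.28, 7.81 and 6.66 FPKM in Sham, 5.52, 5.61 and 4.96 in VO and 6.68, 7.61 and 6.71 in CsA (-0.43 ± 0.131, limma adjusted p = 0.0732). Eif4g1, its more abundant paralog, measured 50.9, 49.9 and 43.9 in Sham, 34.6, 41.1 and 29.9 in VO and 40.0, 46.7 and 47.4 in CsA (-0.45, adjusted p = 0.109, and -0.26 after GC correction). In both scaffolds every VO library was below every Sham library, and their ratio overlapped between the groups (6.15 to 6.59 in Sham, 6.03 to 7.34 in VO). Eif4g2, a relative that lacks the eIF4E-binding part, was the most abundant gene of this role, at 113, 121 and 127 in Sham, 194, 157 and 149 in VO and 144, 126 and 123.3 in CsA. It was higher in every VO library (0.46, limma adjusted p = 0.115) and passed without VO 3 (0.53, adjusted p = 0.0437), while after GC correction it was 0.23 (adjusted p = 0.341). The helicases Eif4a1 and Eif4a2 were at 28.4 to 41.1 and 52.0 to 55.0 FPKM in Sham, and at 38.2 to 53.6 and 57.5 to 91.7 in VO. Eif4a1 overlapped Sham and Eif4a2 did not (0.44, and 0.13 after GC correction), but 33.3% of the words of Eif4a1 occur elsewhere, mainly in the pseudogene Eif4a-ps4, itself listed at 15.0 to 51.1 FPKM.

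All 3 tested eIF4E-binding proteins had a fold change below 0 (median -0.19), none past the test. With median-of-ratios scaling or GC correction 1 of the 3 was above 0, with the median still below. Eif4ebp2, the most abundant, was level at 30.2, 27.1 and 36.2 FPKM in Sham and 34.9, 30.4 and 27.8 in VO (-0.0015, limma adjusted p = 0.998). Eif4ebp1, the mTORC1 substrate, was at 15.5, 14.0 and 12.5 in Sham and 7.89, 12.2 and 18.1 in VO. Eif4enif1, which carries eIF4E into the nucleus, was lower in all VO libraries (-0.36, limma adjusted p = 0.141). Eif4ebp3 counted at most 3 fragments in a library. The 4 genes that act beside initiation all had a fold change above 0 in VO, from 0.22 to 0.38, and a median of 0.34. That median was 0.03 without VO 3, 0.52 after GC correction and 0.31 with both. Eif5a, a hypusinated elongation and termination factor, was at 89.3, 99.6 and 86.5 in Sham and 77.6, 108 and 146 in VO. Its paralog Eif5a2 went the other way within VO, at 3.47, 3.36 and 1.53 against 1.60 to 2.06 in Sham, and passed without VO 3 (0.64, limma adjusted p = 0.0382), while after GC correction it was at 0.02 (adjusted p = 0.957). Eif6, which keeps large subunits apart, and Eif4a3, of the exon junction complex, had their highest values in VO 3, at 20.2 against at most 9.44 elsewhere and 43.9 against at most 26.9.

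Several of these values depended on the third VO library. It held the highest of 9 values in 24 of 47 factors (51.1% against 27.3% of all genes), and VO 1 the lowest in 15 (31.9% against 22.2%). The median deviation of the factors from the Sham mean was -0.06 in VO 1, 0.09 in VO 2 and 0.32 in VO 3, while over all genes it was within 0.0135 of 0 in these libraries. For eIF3 genes the 3 values were -0.32, -0.03 and 0.20. Without VO 3, 9 of 47 factors passed in VO against Sham, against 15.1% of all genes (2032). Of the 9, 5 rose (Eif1a, Eif2s2, Eif5, Eif4g2 and Eif5a2) and 4 fell (Eif3f at -0.78, Eif3g at -1.13, Eif3h at -0.69 and Eif3k at -0.89). The GC content of the 5 ran from 38.7% to 43.2% and that of the 4 from 49.8% to 55.8%. With GC correction and without VO 3, 0 factors passed. The part of erythroid content or of the mitochondrial share in these values was not tested.

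**Figure D3:**
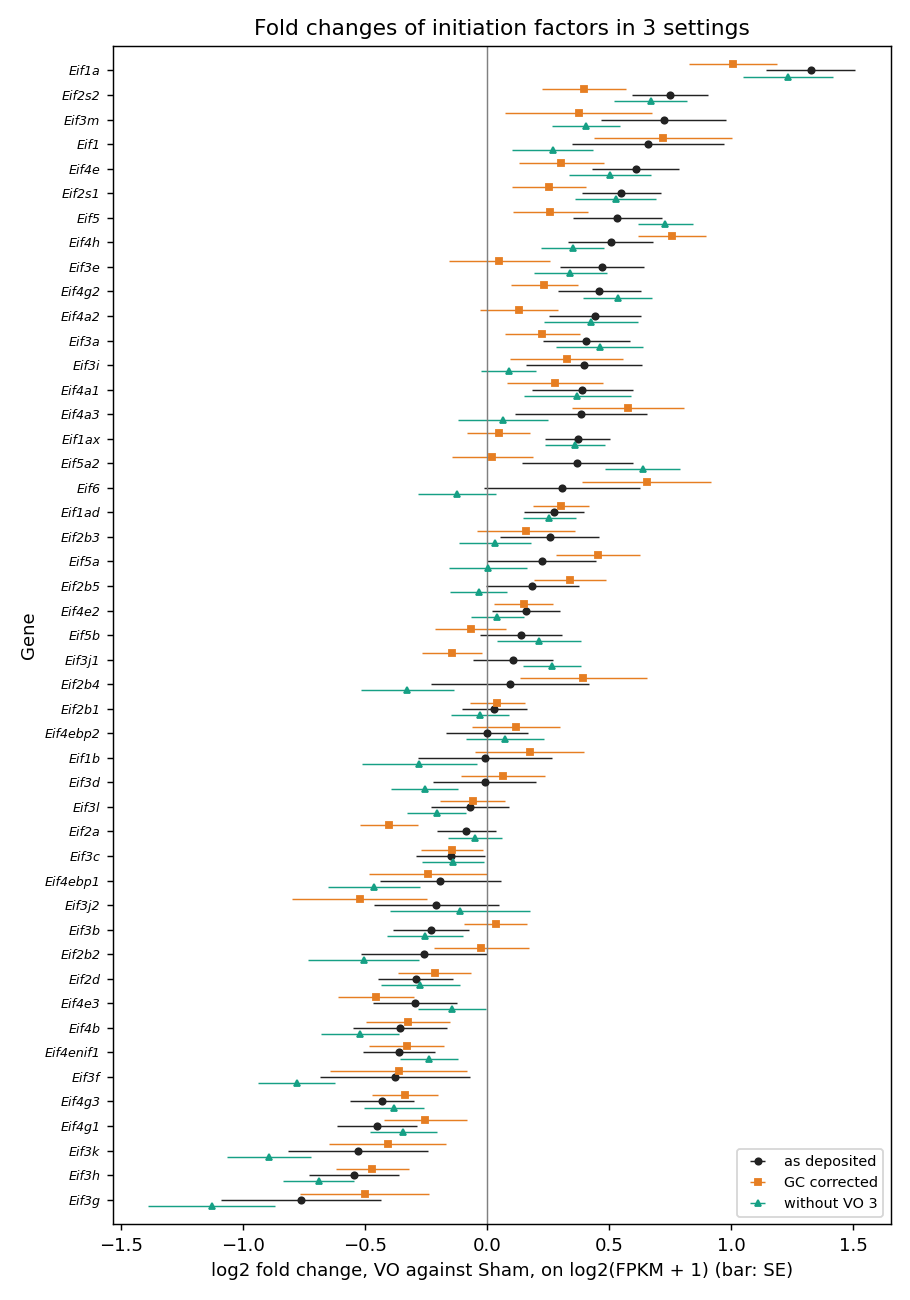
Log2 fold change of each tested factor in VO against Sham with its SE, as deposited, after GC correction and without VO 3. Eif1a is highest in all 3 settings, at 1.33, 1.01 and 1.23, and Eif3f, Eif3g and Eif3k move further below 0 when VO 3 is left out.

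Fold changes followed transcript GC content in the factors as in all genes. Across the 47 factors, which share their libraries, Spearman's rho of the VO against Sham fold change with GC was -0.50, and across 13465 genes it was -0.53. Of 16 factors with GC under 45%, 14 were above 0 (median 0.45, against 0.26 for all such genes), and of 31 with more, 13 were (median -0.01, against -0.10). Eif1a has a GC content of 40.0% and Eif2s2 of 38.7%. In CsA against Sham rho was -0.62 in the factors and -0.53 in all genes, and in CsA against VO 0.40 in both. After each library was corrected for its GC trend, no factor and no gene passed in VO against Sham (limma, 13 of 47 factors and 2855 of all genes at an unadjusted p under 0.05), and the factors' median was 0.07.

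**Figure D4:**
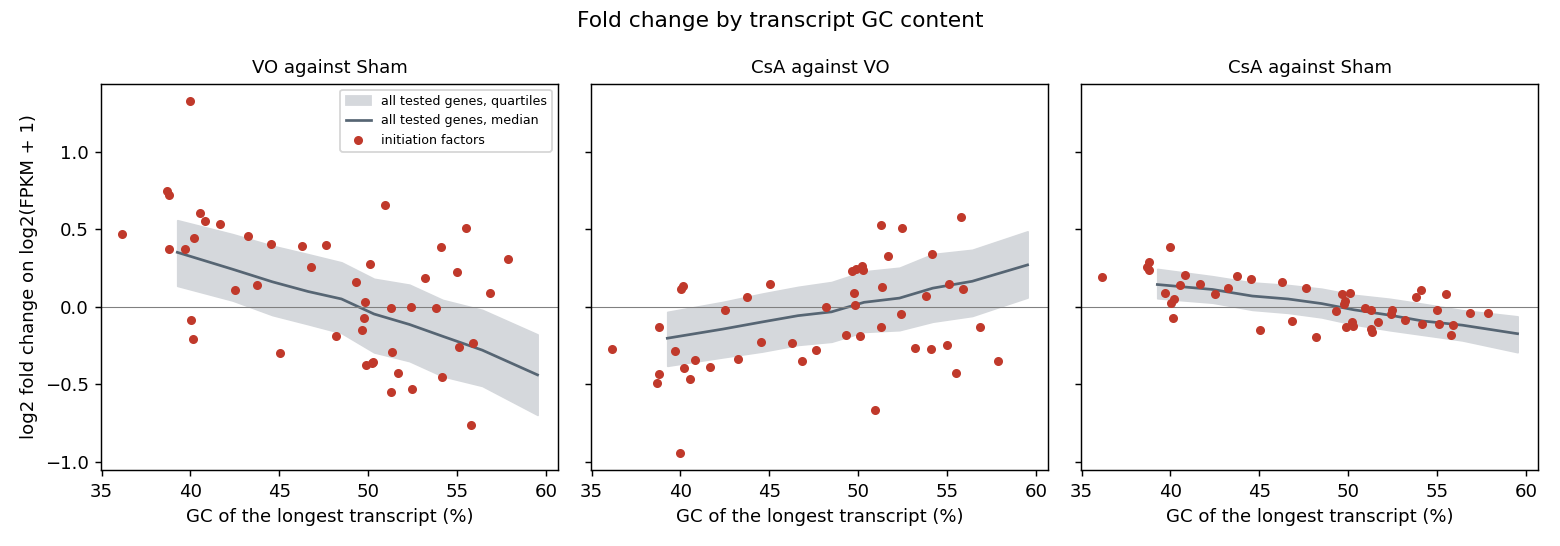
Log2 fold change against the GC content of the longest transcript in the 3 comparisons, with points for the 47 tested factors and a line and band for the median and quartiles of all tested genes in 10 groups by GC. The points follow the slope of the band, and Eif1a at 40.0% GC stands well above it in VO against Sham and below it in CsA against VO.

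In CsA against VO no factor and no gene passed the test, in limma or in voom, where 0% of all genes were called. At an unadjusted p under 0.05 limma had 6 of 47 factors (12.8% against 16.5% of all genes) and voom 7 (14.9% against 16.8%). These comparisons share the VO libraries with VO against Sham, so opposite signs are built in. Groups did not overlap in 11 factors (23.4% against 21.2%), with CsA the lower group in 9 (19.1% against 10.3%) and the higher in 2 (4.26% against 10.9%). The 6 factors with the smallest p were Eif1a at -0.94 ± 0.182, Eif2s2 at -0.49, Eif3h at 0.53, Eif4e at -0.47, Eif4g3 at 0.33 and Eif4h at -0.43 (limma adjusted p from 0.204 to 0.272). All 6 had non-overlapping groups, with the library values given above. The factors' median was -0.13, with 19 of 47 above 0 (40.4% against 49.8% of all genes), and -0.0017 without VO 3.

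In CsA against Sham no factor and no gene passed either, in limma or in voom. None of the 47 had an unadjusted p under 0.05, against 1.48% of all genes (200). The fit takes its spread from all 9 libraries, VO included. Without VO 3, 2 factors were under 0.05, Eif1a and Eif3m (limma unadjusted p = 0.0457 and 0.0473). They make 4.26% of the set against 3.48% of all genes. The median was 0.02, with 24 of 47 above 0 (51.1% against 50.3% of all genes). Groups did not overlap in 3 factors (6.38% against 9.74%). Eif3d was lower in CsA (2.13% of factors against 4.94%), and Eif3e and Eif3m were higher (4.26% against 4.8%). The smallest p belonged to Eif1a (0.38 ± 0.182), Eif2s2 (0.26), Eif2s1 (0.20), Eif5b (0.20), Eif3m (0.29) and Eif3e (0.19), at a limma adjusted p of 1. Within CsA, Eif1a, Eif2s2, Eif2s1 and Eif4e were lowest in CsA 2 and higher in CsA 1 and CsA 3. For Eif2s1 the sign turned to -0.07 when the 3 libraries with high atrial transcripts were left out.

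The genes around initiation were taken from 3 lists, chosen with earlier results of these data known. Of all genes, 2.72% fell and 2.04% rose in VO against Sham. Of 14 partners of initiation factors, 1 fell and none rose. This was Pabpc4, a cytoplasmic poly(A)-binding protein, at 55.2, 54.9 and 45.1 FPKM in Sham, 28.8, 29.7 and 36.5 in VO and 41.3, 48.7 and 42.3 in CsA (-0.69, limma adjusted p = 0.0456). Next by p was Mcts1, a tRNA-delivery partner on reinitiating ribosomes, at 0.69 (limma adjusted p = 0.0914). Its fold change ran from 0.0099, with GC correction and without VO 3, to 0.88 over the alternatives. Of 10 tested elongation and termination factors none passed, against 4.76% of all genes. The nearest were Eef1a2, the muscle form of eEF1A, at -1.02 and the release factor Etf1 at 0.52 (limma adjusted p = 0.0511 and 0.0563), with ranges of -1.24 to -0.55 and 0.29 to 0.55 over the alternatives.

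Of 18 eIF2 kinases, phosphatase subunits and mTORC1 genes, 1 rose and 2 fell in VO against Sham, where 2.04% of all genes rose and 2.72% fell. The list was chosen with earlier results of these data known, so the count beside these shares is only a description. Of the 18, 14 had a fold change below 0 (median log2 -0.27). Rheb, the GTPase that activates mTORC1, rose from 12.0, 12.5 and 11.6 FPKM in Sham to 22.9, 19.2 and 31.4 in VO, with CsA at 15.7, 12.9 and 13.6 (0.94, limma adjusted p = 0.0389). Ddit4, an mTORC1 inhibitor, fell from 47.1, 24.5 and 55.2 to 5.79, 7.73 and 9.06, with CsA at 21.6, 54.4 and 17.3 (-2.28, limma adjusted p = 0.0382). Mknk2, a kinase of eIF4E, fell from 37.4, 27.1 and 48.5 to 13.0, 18.5 and 15.3, with CsA at 24.4, 38.7 and 23.7 (-1.20, limma adjusted p = 0.0408). In all 3 the VO libraries lay outside both other groups. The 4 calls of these lists held without VO 3 and in voom, and kept their direction in all 20 alternatives. None held without Sham 1, Sham 3, VO 1, CsA 1 or CsA 3 or after GC correction, which gave 0.77 for Rheb, -1.94 for Ddit4, -0.74 for Mknk2 and -0.52 for Pabpc4. Without Sham 2 only Ddit4 passed, and without VO 2 Pabpc4 did not (limma adjusted p from 0.0303 to 0.975 over the alternatives for the 4 genes). No gene of the lists passed in either comparison with CsA.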

How the data were processed

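Bulk RNA sequencing libraries, each from 1 microgram of total RNA and an NEBNext Ultra preparation (per the labels' protocols), were analysed in 3 groups of 3 taken from the labels. The deposited table holds FPKM per gene and library, computed by the authors. The builds GRCm38 and mm10 are named without roles, as are GATK 3.7, DESeq2 1.20.0, StringTie 1.3.3b, HISAT2 2.0.5 and featureCounts 1.5.0-p3, per the submitters' processing notes. Strand setting and annotation release are not given in the sources used here, so reads of overlapping genes cannot be told apart.

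The filter kept genes whose mean reached 0.5 FPKM (13477 of 54532). log2(FPKM + 1) of all 9 libraries entered 1 fit in limma 3.58.1 (R 4.3.3) with a mean-variance trend and no covariate, two-sided, with Benjamini-Hochberg adjustment at 0.05 over all tested genes. Such fold changes understate the change of low genes. The script was tested on simulated data. FPKM steps gave whole fragments (100% of values within 0.1 of a whole number), and voom ran on these as an alternative. It called 908 genes in VO against Sham. Replicates differed by more than sampling noise (chi-square per degree of freedom from 11.5 to 183). GC content came from the longest GENCODE M21 transcript, and a loess trend (span 0.3, degree 1) was removed per library. Members were described by role, and values are given for those past the test, the 6 smallest p per comparison, the most abundant of each role, fixed paralog pairs and, of other pathway genes, those past the test and the 2 smallest p per list. Further members were named after their values were seen. Members and lists were chosen with earlier results of these data known.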

Additional observations from a re-analysis of the deposited data

How the results depend on the processing

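The count of factors past the test in VO against Sham, 2 of 47, stayed at 2 with a pseudocount of 0.1, a minimum mean of 1 FPKM, median-of-ratios scaling and voom. It was 0 with no filter on low values, with GC correction and with only the 2 groups compared. Leaving out 1 library gave 0 to 9 factors. It was 0 without Sham 1, Sham 3, VO 1, CsA 1 or CsA 3, 1 without Sham 2, 4 without VO 2, 9 without VO 3 and 2 without CsA 2. Over all genes the count was 642, and it moved to 0 or 1 with no filter, GC correction, only the 2 groups, or without Sham 1, Sham 3, VO 1, CsA 1 or CsA 3, to 69 without Sham 2, 793 without VO 2 and 2032 without VO 3. Where 1 VO or Sham library was left out, fewer libraries were compared; otherwise the cause was not tested. A pair of settings was chosen after seeing the data: without Sham 1, Sham 3 and CsA 3, and GC correction without VO 3. Both gave 0 factors.

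The factors' median in VO against Sham ran from 0.001346 to 0.2372 with 1 library left out, lowest without VO 3, and was -0.02439 with GC correction and without VO 3. In CsA against VO it ran from -0.2242 to -0.001748 and was 0.01656 with both. The fold change of Eif2s1 in CsA against Sham turned from 0.20 to -0.0715 without Sham 1, Sham 3 and CsA 3. That setting also turned Eif4e in CsA against Sham from 0.14 to -0.116. With GC correction and without VO 3, Eif3e and Eif3m turned to -0.22 and -0.05 in VO against Sham and from -0.27 and -0.43 to 0.24 and 0.19 in CsA against VO. Eif5b, 0.14 in VO against Sham, was -0.07 with GC correction and -0.02 without Sham 3, and its 0.06 in CsA against VO was -0.01 without VO 3. Eif3h in CsA against Sham, at -0.02, ran to 0.05 without Sham 2. None of these passed the test. Both comparisons with CsA had 0 factors in every alternative run.

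Libraries of different groups share replicate numbers. With the number as a replicate block 0 factors passed (1 gene in all), and 0 with the block and GC correction. Same-numbered libraries correlated at -0.4 to 0.237, 1 of 9 above 0.1, and 2 of 9 libraries correlated best with their own number. These values give no sign that the numbers pair the libraries, but with groups of 3 they cannot exclude it. Depth was not limiting for the 2 called factors, at 256 or more fragments per library for Eif1a and 845 for Eif2s2, but was for Eif4ebp3, at 0 to 3.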

Other observations

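Processed pseudogenes named for initiation factors were outside the chosen set. Eif4a-ps4 was listed at 33.3, 41.1 and 15.0 FPKM in Sham, 42.4, 51.1 and 39.3 in VO and 41.2, 29.9 and 38.8 in CsA, levels close to those of its parent Eif4a1, with which it shares 30.0% of the 50-base words of Eif4a1. Eif1-ps1 lay between 0.57 and 5.23 FPKM. Eif2s3x, the X-linked gene of eIF2 gamma that the rule leaves out, measured 29.4, 18.1 and 27.8 FPKM in Sham, 36.2, 31.9 and 9.12 in VO and 30.9, 27.6 and 30.4 in CsA. The VO 3 value was the lowest of the 9, while Eif2s1 and Eif2s2, the other eIF2 subunits, had their highest values in that library.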
